A study of Mus musculus with 12 samples.

Results

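The nuclear-encoded subunits of the mitochondrial respiratory chain and ATP synthase were followed in mouse distal colon, as 83 genes whose symbol starts with Nduf (followed by a, b, c, s or v and a number), Sdh (a to d), Uqcr, Cox4 to Cox8 or Atp5 and which had a probe on the array, of 18539 gene symbols with a probe. Of these, 80 passed the filter on dim probes and were tested among 18947 genes. The 80 were 35 of complex I, 4 of complex II, 8 of complex III, 16 of complex IV and 17 of complex V. Only 13509 of the 18947 had a symbol. Probes without a symbol were kept under their own identifier and are counted as genes in every share and median of all genes. Cox4i2, Cox7b2 and Cox8c were well above background on 0 of 12 arrays and were not tested. The rule that picks the genes reads symbols only, but the set was proposed with earlier results of these data known.

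Messenger RNA was measured on one-colour arrays in 4 groups of 3 arrays, all from female BALB/c mice sampled on day 100. Their age is given as 5 to 7 weeks, which cannot be the age on day 100. AOM/DSS mice received azoxymethane (AOM, a colon carcinogen) at 12.5 mg/kg on day 1, and then dextran sulfate sodium (DSS, which injures the colon lining) in drinking water for 5 days of every 21, for 3 cycles from day 5. AOM mice received 10 mg/kg once a week, 6 times, from day 1, with no DSS, and DSS mice received the same DSS cycles with no AOM. Controls received neither agent, as far as the labels say. The AOM/DSS samples were neoplasms clipped with scissors and kept in RNA storage solution, while in the other groups epithelium was scraped off with a slide and put into Trizol, so collection and disease cannot be told apart. Nothing in the labels says that the 3 arrays of a group are separate mice, so each p-value rests on the scatter of these arrays alone, and that scatter may be technical.

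The respiratory chain passes electrons from NADH (complex I) or succinate (complex II) through ubiquinone, complex III and cytochrome c to oxygen at complex IV, and complex V makes ATP with the proton gradient that complexes I, III and IV build. Most subunits are encoded in the nucleus, and a few at the catalytic centres in mitochondrial DNA. Colonocytes are known to draw much of their energy from oxidising butyrate in mitochondria.

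Each value below is a log2 signal minus the 75th percentile of its array, so a value of 0 is the 75th percentile and differences are in log2 units. Every array had 0 saturated spots, and the brightest member, Cox6a1, reached 46.8% of the scanner's saturation value. The 75th percentile itself lay at 1115 to 1185 intensity units on the AOM/DSS arrays, 454 to 694 on AOM, 434 to 670 on DSS and 394 to 677 on control arrays. Before scaling, the median log2 signal of the members was 15.26 ± 0.19 in AOM/DSS, 15.06 ± 0.20 in AOM, 14.98 ± 0.18 in DSS and 14.90 ± 0.20 in control samples (SD, n = 3 each). The lower values described for AOM/DSS are therefore lower relative to the other genes on the array, not in unscaled signal. In tissue samples, fewer cells of a type and less RNA per cell cannot be told apart.

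In AOM/DSS neoplasms against control epithelium, 62 of the 80 members fell and 2 rose (limma, Benjamini-Hochberg adjusted p under 0.05 over all 18947 genes), where 17.5% of all genes tested were called lower and 17.3% higher. The median difference was -0.95 over the members and 0.03 over all genes. Over the 4 groups together, 67 of 80 members differed by limma's F test, as did 52.6% of all genes. On 72 of the 80 members every AOM/DSS array lay below every control array, against 26.2% of all genes. All 16 members with more than 1 kept probe, 36 probes together, were below 0 on each probe. By complex, 23 of 35 members of complex I fell, with a median of -0.76; 4 of 4 of complex II, with a median of -0.98; 8 of 8 of complex III, with a median of -1.04; 13 of 16 of complex IV, with a median of -1.16; and 14 of 17 of complex V, with a median of -0.92.

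**Figure D1:**
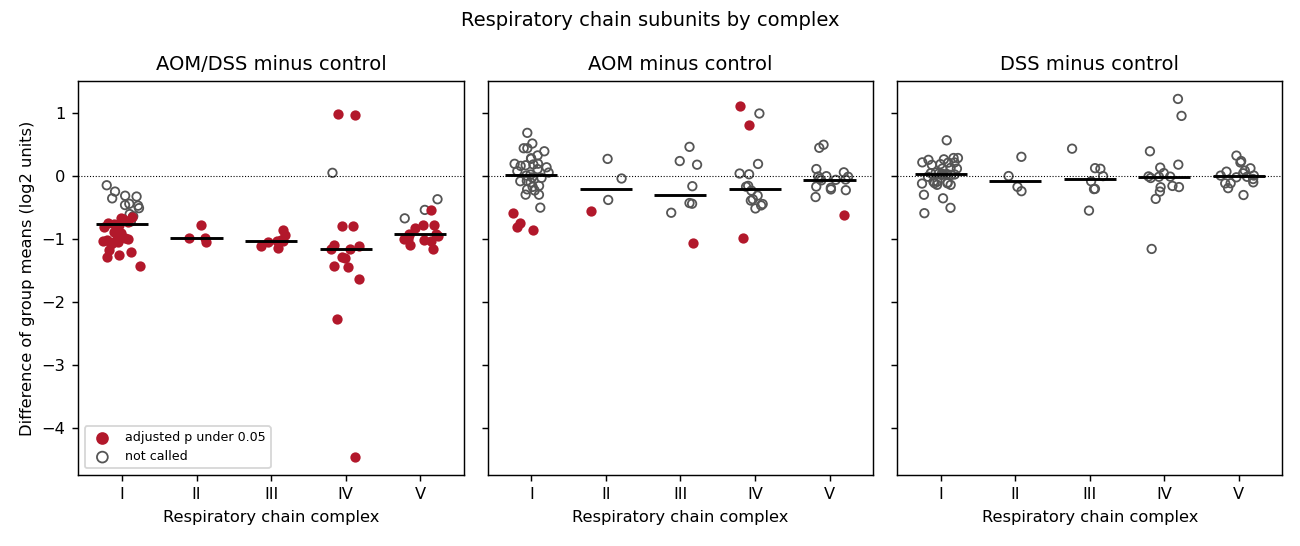
Difference of group means (vertical axis, log2 units) for each of the 80 members by complex, in AOM/DSS, AOM and DSS samples minus control; filled points passed an adjusted p of 0.05, open points did not, and bars are medians. The medians of the 5 complexes lie between -1.16 and -0.76 for AOM/DSS, and no member was called for DSS.

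The size of this difference depends on the scaling between arrays. The members are bright: 71 of the 80 lie among the brightest 10% of genes tested, and that 10% as a whole had a median of -0.42, with 662 of 1895 genes called lower, against -0.98 and 58 of 71 for the members in it. Under quantile normalization 25 members were called lower, where 16.7% of all genes were, and 2 higher, where 20.2% were, and the members' median was -0.36 while that of the brightest 10% was 0.04. Under all of 75th percentile scaling, quantile normalization, the authors' series matrix and cyclic loess, 25 members fell, with 14.7% of all genes, and 2 rose, with 14.6%. With normexp background correction 2 members were called lower, with 8.8% of all genes, and 1 higher, with 5.8%. The members' median, -0.34, then lay next to that of all genes, -0.32, while that of the brightest 10% was 0.19. After normexp the 75th percentile was 1149 on control replicate 1 and 1350 on DSS replicate 2, against 393.5 and 557.5 before. It was 496.6 to 744.8 on the other AOM, DSS and control arrays. The part of those arrays in the normexp counts was not tested. With the slide as a block 3 fell, with 6.72% of all genes, and 1 rose, with 4.93%, at a median of -0.71 over the members and 0.01 over all genes. Without control replicate 1, 39 members were called in place of 64, and the share of all genes in that fit was not compared. Within the only slide that held both groups, 1 AOM/DSS array against 3 control arrays, 76 of 80 members were below 0. Their median was -0.71, against 0.01 for all genes and -0.34 for the brightest 10%. For every gene, the slide-block estimate of AOM/DSS minus control is this same difference. These are therefore not separate checks, and each slide-block difference between these groups rests on AOM/DSS replicate 3.

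**Figure D2:**
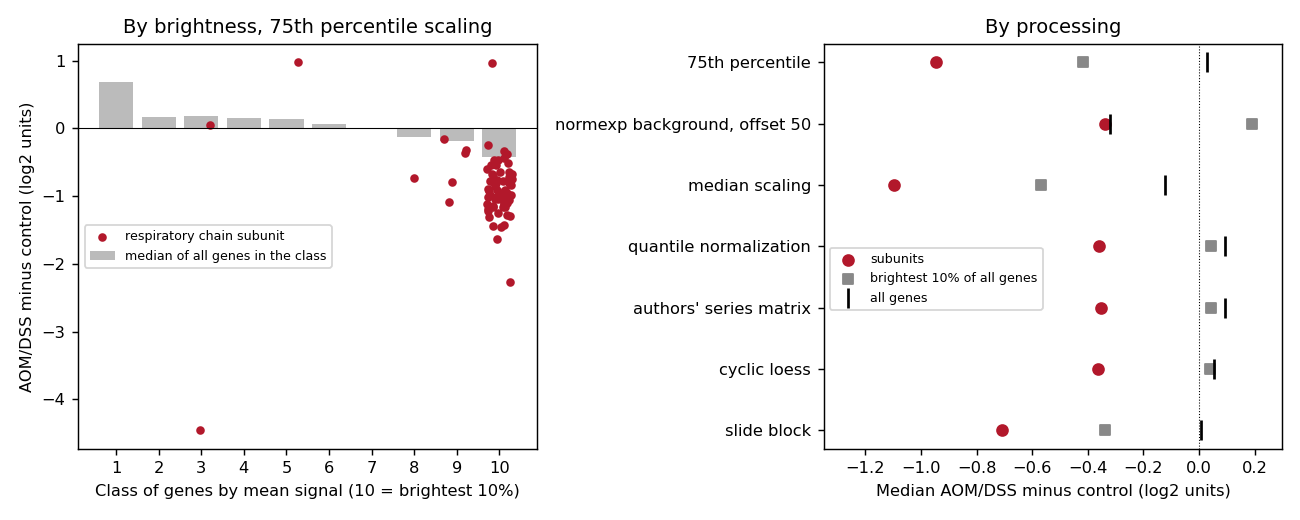
Left, AOM/DSS minus control (log2 units) for each member (points) over 10 equal classes of all genes by mean signal, with the median of all genes in each class as bars; right, the median difference of the members, of the brightest 10% and of all genes under 7 ways of processing. The members' median is below 0 in each of them, from -1.10 to -0.34. It equals that of all genes within 0.02 only after normexp, where the brightest 10% lay at 0.19.

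Complex I oxidises NADH. Its called falls were led by Ndufb9 and Ndufa1, both accessory subunits of the membrane arm. Ndufb9 measured 5.42, 5.57 and 5.63 in AOM/DSS neoplasms, 7.03, 6.69 and 6.67 in AOM, 6.49, 7.11 and 7.28 in DSS and 7.31, 7.07 and 6.54 in control epithelium. Its difference between AOM/DSS and control was -1.43 ± 0.27 (SE), adjusted p = 0.0026. Ndufa1 measured 5.29, 5.21 and 5.56 in AOM/DSS neoplasms, 5.91, 5.67 and 5.89 in AOM, 6.19, 6.28 and 6.54 in DSS and 6.79, 6.67 and 6.45 in control epithelium, and differed by -1.28 ± 0.19 (SE), adjusted p = 0.0008. All AOM/DSS values of both genes lay below all control values. Of the 7 core subunits, which carry the catalytic centres, 3 fell, with a median of -0.47, and of the 28 accessory subunits 20 fell, with a median of -0.80. The core subunits that fell were Ndufs7, Ndufv1 and Ndufs3. Members that did not pass here included Ndufs8, at -0.15, and Ndufc2, at -0.25. The difference between core and accessory subunits was not tested.

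Complex II, succinate dehydrogenase, is also an enzyme of the citrate cycle. Its flavoprotein subunit Sdha measured 1.90, 1.77 and 1.94 in AOM/DSS neoplasms, 1.91, 2.29 and 2.07 in AOM, 2.51, 2.37 and 2.56 in DSS and 2.74, 2.58 and 2.64 in control epithelium. The iron-sulfur subunit Sdhb measured 3.44, 3.27 and 3.67 in AOM/DSS neoplasms, 4.86, 4.70 and 4.56 in AOM, 4.07, 5.14 and 5.01 in DSS and 4.63, 4.45 and 4.24 in control epithelium. For both, the 3 AOM/DSS values lay below the 3 control values, and for Sdhb they also lay below all AOM and DSS values. The membrane anchors behaved likewise against control: Sdhc measured 3.45, 3.46 and 3.60 in AOM/DSS neoplasms, 4.52, 4.61 and 4.38 in AOM, 4.11, 4.78 and 4.74 in DSS and 4.76, 4.65 and 4.22 in control epithelium. Sdhd measured 5.17, 5.08 and 5.49 in AOM/DSS neoplasms, 5.75, 5.95 and 5.83 in AOM, 5.73, 6.14 and 6.08 in DSS and 6.20, 6.39 and 6.09 in control epithelium. The differences between AOM/DSS and control were -0.78 ± 0.17 (SE), adjusted p = 0.0062 for Sdha and -0.98 ± 0.28 (SE), adjusted p = 0.02 for Sdhb. They were -1.04 ± 0.23 (SE), adjusted p = 0.0061 for Sdhc and -0.98 ± 0.20 (SE), adjusted p = 0.0037 for Sdhd. Under quantile normalization Sdhd no longer passed, at -0.40 and an adjusted p of 0.11 (limma), while the other three did.

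Complex III moves electrons from ubiquinol to cytochrome c. Its core protein gene Uqcrc1 measured 4.32, 4.51 and 4.31 in AOM/DSS neoplasms, 6.19, 5.98 and 5.80 in AOM, 5.41, 6.14 and 6.33 in DSS and 5.73, 5.69 and 5.17 in control epithelium. The AOM/DSS values lay below those of every other array, and the difference from control was -1.15 ± 0.27 (SE), adjusted p = 0.0077. The small subunit gene Uqcr10 measured 6.78, 6.88 and 7.04 in AOM/DSS neoplasms, 7.87, 7.42 and 7.48 in AOM, 7.43, 7.87 and 8.13 in DSS and 8.14, 8.30 and 7.62 in control epithelium, and differed by -1.12 ± 0.25 (SE), adjusted p = 0.0067; it did not pass under quantile normalization, at -0.34 and an adjusted p of 0.10 (limma). The Rieske iron-sulfur protein gene Uqcrfs1 fell by 1.05, and it passed under each of the 4 scalings named above.

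Complex IV, cytochrome c oxidase, held both the largest falls and the only rises. Its 10 subunits common to all tissues fell, with a median of -1.23; under quantile normalization 5 of the 10 were called, with a median of -0.51. Cox6c, one of them, measured 5.27, 5.14 and 5.59 in AOM/DSS neoplasms, 6.88, 6.29 and 6.62 in AOM, 6.40, 7.21 and 7.19 in DSS and 7.10, 7.14 and 6.66 in control epithelium, a difference from control of -1.64 ± 0.28 (SE), adjusted p = 0.0015. Every AOM/DSS value of Cox6c was below every other value. Cox4i1, the tissue-wide form of subunit 4, measured 6.75, 6.89 and 6.94 in AOM/DSS neoplasms, 8.43, 7.90 and 7.80 in AOM, 7.67, 8.35 and 8.42 in DSS and 8.27, 8.10 and 7.68 in control epithelium, and differed by -1.16 ± 0.27 (SE), adjusted p = 0.0077. Cox7a2l has been described as a factor that joins complexes III and IV into supercomplexes, which was not examined in these mice. It measured 3.33, 3.16 and 3.37 in AOM/DSS neoplasms and 4.37, 4.09 and 3.90 in AOM. Its values were 3.67, 3.75 and 4.29 in DSS and 4.28, 3.95 and 4.02 in control epithelium. The difference of AOM/DSS from control was -0.80 ± 0.22 (SE), adjusted p = 0.018. Under quantile normalization Cox4i1, at -0.37 and an adjusted p of 0.071, and Cox7a2l, at -0.47 and 0.064, did not pass (limma).

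Several complex IV subunits have isoforms bound to certain tissues. Cox7a1, the form of heart and skeletal muscle, measured 2.60, 1.80 and 2.11 in AOM/DSS neoplasms, 4.39, 3.80 and 3.95 in AOM, 4.43, 5.21 and 4.84 in DSS and 4.64, 4.71 and 3.95 in control epithelium. Its tissue-wide counterpart Cox7a2 measured 5.21, 5.17 and 5.74 in AOM/DSS neoplasms, 6.62, 6.11 and 6.40 in AOM, 6.26, 6.71 and 6.97 in DSS and 7.07, 6.92 and 6.49 in control epithelium. Both genes were lowest on the 3 AOM/DSS arrays. The difference from control was -2.27 ± 0.31 (SE), adjusted p = 0.00049 for Cox7a1, and -1.45 ± 0.27 (SE), adjusted p = 0.0024 for Cox7a2. Cox8b, the other muscle form, was dim and measured -4.68, -5.97 and -7.11 in AOM/DSS neoplasms, -2.16, -2.18 and -1.46 in AOM, -4.24, -1.77 and -1.86 in DSS and -2.38, -1.29 and -0.73 in control epithelium. It was well above background on 1 of 3 AOM/DSS, 3 AOM, 2 DSS and 3 control arrays, so the size of its fall, -4.46 ± 0.75 (SE), adjusted p = 0.0015, rests on signals near background. It passed the filter on dim probes through the groups where it is high. The tissue-wide Cox8a measured 6.50, 6.62 and 6.75 in AOM/DSS neoplasms, 7.77, 7.39 and 7.30 in AOM, 7.33, 7.76 and 8.04 in DSS and 7.94, 7.85 and 7.37 in control epithelium, with a difference of -1.10 ± 0.24 (SE), adjusted p = 0.0063. Cox7a1 was called lower under each of the scalings, with normexp and with the slide as a block. Cox6a2, the muscle form of subunit 6a, did not pass: it measured -4.39, -3.66 and -2.49 in AOM/DSS neoplasms, -2.24, -2.62 and -2.86 in AOM, -3.26, -1.39 and -2.37 in DSS and -2.92, -4.57 and -3.20 in control epithelium, and its AOM/DSS and control values overlapped, with a difference of 0.05 ± 0.60 (SE), adjusted p = 0.96. The tissue-wide Cox6a1 measured 7.71, 7.71 and 7.80 in AOM/DSS neoplasms, 9.28, 8.78 and 8.60 in AOM, 8.67, 9.03 and 9.41 in DSS and 9.33, 9.15 and 8.65 in control epithelium, and fell, with a difference of -1.30 ± 0.27 (SE), adjusted p = 0.0042. Under quantile normalization neither Cox6a1, at -0.25 and an adjusted p of 0.2, nor Cox8a, at -0.40 and 0.058, passed (limma).

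Markers of muscle were measured beside these isoforms. The summed scaled signal of 6 smooth muscle markers, in multiples of each array's 75th percentile, was 23.3 to 26.3 in AOM/DSS, 67.7 to 97.1 in AOM, 51.9 to 96.7 in DSS and 21.6 to 72.5 in control samples, and 0 of the 6 were called between AOM/DSS and control, while 5 of 6 fell against AOM and 3 of 6 against DSS. For 6 striated muscle markers it was 0.315 to 0.432 in AOM/DSS, 1.84 to 2.08 in AOM, 1.14 to 1.73 in DSS and 0.658 to 1.47 in control samples, with Ckm, Mb and Actn3 not well above background on any array. The striated muscle marker tested, Acta1, fell by 1.58 in AOM/DSS against control, with an adjusted p of 0.0058 (limma). Their part in the values of Cox7a1 and Cox8b was not tested.

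The rises were in Ndufa4 and Cox6b2. Ndufa4, first described in complex I and now placed in complex IV, measured 4.91, 4.92 and 5.43 in AOM/DSS neoplasms, 4.66, 4.82 and 5.27 in AOM, 3.96, 4.36 and 4.16 in DSS and 3.90, 4.31 and 4.14 in control epithelium. All AOM/DSS and AOM values were above all DSS and control values. The difference from control was 0.97 ± 0.24 (SE), adjusted p = 0.01 for AOM/DSS and 0.80 ± 0.24 (SE), adjusted p = 0.029 for AOM, and these comparisons share the control arrays. Cox6b2, the testis form of subunit 6b, measured -0.38, -0.73 and -0.21 in AOM/DSS neoplasms, -0.35, -0.06 and -0.53 in AOM, -0.73, -0.004 and -0.66 in DSS and -1.50, -1.48 and -1.26 in control epithelium. Control was the lowest group, at 0.97 ± 0.24 (SE), adjusted p = 0.012 for AOM/DSS minus control, and 1.10 ± 0.24 (SE), adjusted p = 0.012 for AOM minus control. Neither rise passed with median scaling, where the adjusted p was 0.064 for Ndufa4 and 0.063 for Cox6b2 (limma, AOM/DSS against control). Cox6b2 also did not pass with normexp, at an adjusted p of 0.55, or with the slide as a block, at 0.064, where Ndufa4 passed at 0.026 and 0.025 (limma). The tissue-wide Cox6b1 measured 3.01, 2.80 and 3.22 in AOM/DSS neoplasms, 4.26, 3.95 and 3.79 in AOM, 3.53, 4.10 and 4.34 in DSS and 3.96, 4.01 and 3.47 in control epithelium, and differed by -0.80 ± 0.26 (SE), adjusted p = 0.035, which became -0.50 with an adjusted p of 0.059 under quantile normalization (limma).

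**Figure D3:**
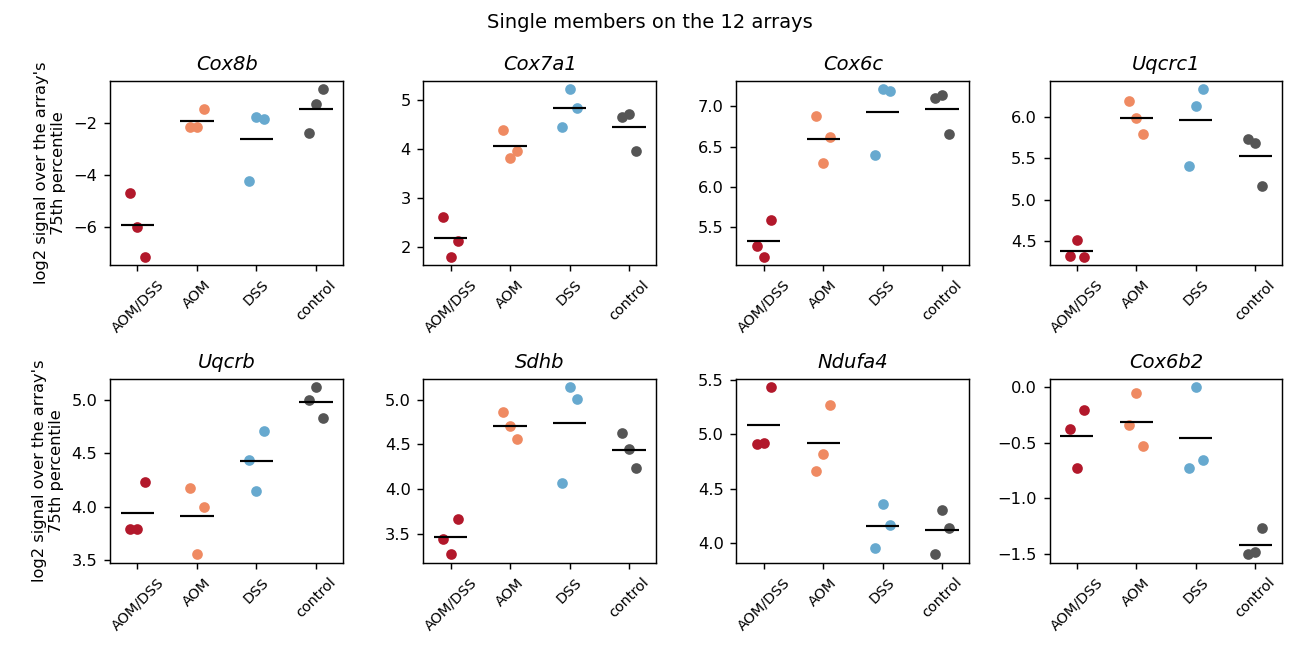
Log2 signal over the array's 75th percentile (vertical axis, a separate scale in each panel) for 8 members on the 12 arrays, by group, with points for arrays and bars for group means. Cox8b, Cox7a1, Cox6c, Uqcrc1 and Sdhb are lowest on the AOM/DSS arrays, Uqcrb is low in AOM/DSS and AOM, Ndufa4 is high in AOM/DSS and AOM, and Cox6b2 is lowest in control.

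Complex V makes ATP in its F1 head, driven by the membrane Fo part. All 5 F1 members fell, and 9 of 12 Fo and stalk members, but under quantile normalization 1 of the 5 and 2 of the 12 did. Atp5d, the delta subunit of F1, measured 4.64, 4.58 and 4.60 in AOM/DSS neoplasms, 6.10, 6.01 and 5.54 in AOM, 5.30, 6.08 and 6.30 in DSS and 6.15, 5.87 and 5.30 in control epithelium, with a difference of -1.17 ± 0.30 (SE), adjusted p = 0.013. Atp5o, the stalk protein that confers oligomycin sensitivity, measured 5.60, 5.71 and 6.08 in AOM/DSS neoplasms, 6.83, 6.65 and 6.57 in AOM, 6.42, 6.84 and 7.08 in DSS and 7.15, 6.97 and 6.57 in control epithelium, with a difference of -1.10 ± 0.24 (SE), adjusted p = 0.0058. The AOM/DSS values of Atp5o lay below all others, and those of Atp5d below all others too. The genes Atp5g1, Atp5g2 and Atp5g3 encode the same mature proton-carrying subunit c. Atp5g3 measured 6.18, 6.33 and 6.73 in AOM/DSS neoplasms, 7.28, 7.32 and 7.14 in AOM, 6.80, 7.56 and 7.59 in DSS and 7.51, 7.58 and 7.21 in control epithelium, with a difference of -1.02 ± 0.25 (SE), adjusted p = 0.01; under quantile normalization it did not pass, at -0.36 and an adjusted p of 0.14 (limma). Atp5g1 measured 4.52, 4.75 and 4.91 in AOM/DSS neoplasms, 5.69, 5.62 and 5.45 in AOM, 4.66, 5.82 and 5.77 in DSS and 5.05, 5.38 and 4.85 in control epithelium, and did not pass, with a difference of -0.37 ± 0.30 (SE), adjusted p = 0.37. Atp5g2 measured 5.63, 5.85 and 5.84 in AOM/DSS neoplasms, 7.03, 6.72 and 6.52 in AOM, 6.01, 6.81 and 6.82 in DSS and 6.34, 6.47 and 6.12 in control epithelium, and did not pass either, with a difference of -0.54 ± 0.25 (SE), adjusted p = 0.12. Whether these 3 genes differ from each other in response was not tested.

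The promoters of members that changed were read from RefSeq's windows of 250 bases before to 50 after each gene's start (GRCm38.p6), which held 67 of the 80 members. Those of Cox8b (lowest against control), Uqcrc1 and Sdhd (members of complexes III and II that fell) and Ndufa4 (which rose) are printed as examples with and without a match; capitals mark a motif found on either strand. Cox8b is at chr7:140900397-140900696, minus strand, Uqcrc1 at chr9:108936398-108936697, plus strand, Sdhd at chr9:50603800-50604099, minus strand and Ndufa4 at chr6:11907401-11907700, minus strand.
Cox8b: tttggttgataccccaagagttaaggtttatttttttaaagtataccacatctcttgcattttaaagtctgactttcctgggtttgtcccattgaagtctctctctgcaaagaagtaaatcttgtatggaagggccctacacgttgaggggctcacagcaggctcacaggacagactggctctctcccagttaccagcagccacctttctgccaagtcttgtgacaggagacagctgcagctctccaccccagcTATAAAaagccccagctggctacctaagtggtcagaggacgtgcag
Uqcrc1: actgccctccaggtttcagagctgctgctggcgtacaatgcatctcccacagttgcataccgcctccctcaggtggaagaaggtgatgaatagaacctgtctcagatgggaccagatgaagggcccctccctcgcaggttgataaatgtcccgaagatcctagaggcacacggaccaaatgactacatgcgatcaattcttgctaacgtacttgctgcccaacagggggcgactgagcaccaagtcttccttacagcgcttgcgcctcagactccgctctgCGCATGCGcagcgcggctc
Sdhd: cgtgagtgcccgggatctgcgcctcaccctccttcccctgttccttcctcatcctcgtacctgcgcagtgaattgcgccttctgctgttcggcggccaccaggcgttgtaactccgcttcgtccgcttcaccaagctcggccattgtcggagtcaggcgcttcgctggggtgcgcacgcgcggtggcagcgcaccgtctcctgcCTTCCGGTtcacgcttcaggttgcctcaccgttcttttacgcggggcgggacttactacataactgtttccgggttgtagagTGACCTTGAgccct
Ndufa4: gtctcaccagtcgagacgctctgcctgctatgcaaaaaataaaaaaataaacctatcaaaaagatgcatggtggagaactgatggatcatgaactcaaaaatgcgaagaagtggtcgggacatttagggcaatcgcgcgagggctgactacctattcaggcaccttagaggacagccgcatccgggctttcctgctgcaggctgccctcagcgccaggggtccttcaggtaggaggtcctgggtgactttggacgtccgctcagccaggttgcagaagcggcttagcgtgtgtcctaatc
Cox8b held TATAAA. Uqcrc1 held the NRF1 core CGCATGCG. Sdhd held the ETS core ACCGGAAG and the element of estrogen-related receptors TCAAGGTCA, both on the opposite strand. Ndufa4 held none of the motifs searched, which also included the YY1 core AAGATGGCG, and no match printed overlapped another. Over the 67 members, 13.4% of genes held the NRF1 core, against 2.77% of 17492 protein-coding genes. The shares were 10.4% against 3.4% for the ETS core, 2.99% against 0.377% for the receptor element, 10.4% against 2.14% for the YY1 core and 10.4% against 14.8% for TATAAA. Among the 52 members that fell in AOM/DSS against control, 13.5% held the NRF1 core and 7.69% the ETS core, against 13.3% and 20% of the 15 that did not fall. These are matches of letters in a window, not sites.

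In AOM epithelium against control, 8 members fell and 2 rose, where 17.6% of all genes tested were called lower and 14.8% higher. The median difference was -0.05 over the members and -0.01 over all genes. In a fit on genes with a symbol only, 8 members fell and 2 rose. There 13.4% of those genes were lower and 18.8% higher, with a median of 0.16. The members that fell were Uqcrb, Cox7b, Ndufa5, Ndufa1, Ndufb5, Atp5pb, Ndufs1 and Sdha, from complexes I to V. Uqcrb, which helps bind ubiquinone in complex III, measured 3.79, 3.80 and 4.24 in AOM/DSS neoplasms, 4.18, 3.56 and 4.0 in AOM, 4.44, 4.15 and 4.71 in DSS and 5.00, 5.12 and 4.83 in control epithelium, with an AOM minus control difference of -1.07 ± 0.24 (SE), adjusted p = 0.012. Cox7b, a small complex IV subunit, measured 5.40, 5.35 and 5.67 in AOM/DSS neoplasms, 6.01, 5.28 and 5.68 in AOM, 6.17, 6.19 and 6.46 in DSS and 6.69, 6.82 and 6.41 in control epithelium, with a difference of -0.98 ± 0.23 (SE), adjusted p = 0.014. Ndufa5, an accessory subunit of the matrix arm of complex I, measured 4.79, 4.74 and 5.04 in AOM/DSS neoplasms, 5.45, 5.01 and 5.07 in AOM, 5.53, 5.22 and 5.59 in DSS and 5.97, 6.22 and 5.93 in control epithelium, with a difference of -0.86 ± 0.20 (SE), adjusted p = 0.014. On each of these genes all AOM arrays lay below all control arrays. The AOM/DSS minus control difference, which shares the control arrays, was -1.04 for Uqcrb, -1.17 for Cox7b and -1.18 for Ndufa5. The members' median was 0.51 with normexp (all genes -0.27) and 0.12 with median scaling (all genes 0.16), so its sign depended on the processing. In the same comparison 6 of 6 neutrophil, 5 of 5 macrophage and 3 of 6 fibroblast markers rose, and 2 of 6 absorptive colonocyte and 4 of 7 exocrine pancreas markers fell; their part in these values was not tested. Without AOM replicate 2, 1 member was called in place of 10, and the share of all genes in that fit was not compared. With the slide as a block 0 were called, where 0.0106% of all genes were lower and 0.0106% higher. No slide held both AOM and control arrays, so slide and group cannot be told apart directly in this comparison. The block links the groups only through the AOM/DSS arrays, of which 1 lay on the slide of the controls. With normexp 0 were called, where 4.23% of all genes were lower and 5.61% higher.

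In DSS epithelium against control, 0 of 80 members were called (limma), where 0.327% of all genes tested were, and 4 members had an unadjusted p under 0.05, against 21.1% of all genes. The median difference was 0.00 over the members. Differences ran from -1.16 for Cox8b to 1.22 for Cox6a2, both dim. Without DSS replicate 1, 3 members were called, and the share of all genes in that fit was not compared. No slide held both groups, so slide and group cannot be told apart here. In DSS against AOM, 0 members were called (limma), where 0.0106% of all genes were, and 5 had an unadjusted p under 0.05, against 14.8% of all genes.

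Against the other 2 treated groups the AOM/DSS neoplasms were again low. In AOM/DSS against AOM, 58 members fell and 0 rose, where 17.7% of all genes tested were lower and 19.5% higher, with a median of -0.89 over the members. In a fit on genes with a symbol only, 59 members fell. There 21.3% of those genes were lower and 12.8% higher, with a median of -0.21. In AOM/DSS against DSS, 59 fell and 1 rose, where 18.3% were lower and 17.7% higher, with a median of -0.91. The member that rose against DSS was Ndufa4, by 0.93. These comparisons share the AOM/DSS arrays. Against AOM, 16 fell and 2 rose with quantile normalization, where 15.3% of all genes were called lower and 19% higher. With cyclic loess 10 fell and 3 rose, where 15.1% and 16.2% of all genes did. With normexp 3 fell, where 3.93% of all genes did. In both of these settings the share of members called lower was no larger than that of all genes. With the slide as a block 26 fell, where 7.49% of all genes did. Against DSS, 22 fell and 1 rose with quantile normalization, where 16.8% of all genes were called lower and 19.3% higher. With cyclic loess 15 fell and 1 rose, where 17% and 15.5% of all genes did. With normexp 2 fell and 1 rose, where 6.4% and 3.63% of all genes did. The members' share of falls was near that of all genes with cyclic loess and smaller with normexp. With the slide as a block 0 were called, where 1.25% of all genes fell and 1.06% rose (limma). No slide held both AOM/DSS and DSS arrays, so slide and group cannot be told apart directly in that comparison. Within the slide that held 2 AOM/DSS and 2 AOM arrays, 78 of 80 members were below 0, with a median of -1.03, against -0.04 for all genes and -0.74 for the brightest 10%. The slide-block estimate against AOM is this same difference and not a separate check. Without AOM/DSS replicate 1, 19 members were called against AOM, and without DSS replicate 3, 26 were called against DSS. The shares of all genes in those fits were not compared.

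The members' median deviation from the 12-array mean was -0.75, -0.70 and -0.45 on the AOM/DSS arrays, 0.38, 0.10 and 0.11 on AOM, -0.17, 0.40 and 0.53 on DSS and 0.40, 0.35 and -0.03 on control arrays. The AOM/DSS arrays were the 3 lowest, and DSS replicate 1 and control replicate 3 were the lowest of their groups. Those arrays also had the highest summed signal of 8 exocrine pancreas markers, 105 in DSS replicate 1 and 708 in control replicate 3, against 28.2 or less elsewhere. Without both arrays, 68 members fell and 2 rose in AOM/DSS against control, where 21.5% of all genes fell and 20.7% rose.

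**Figure D4:**
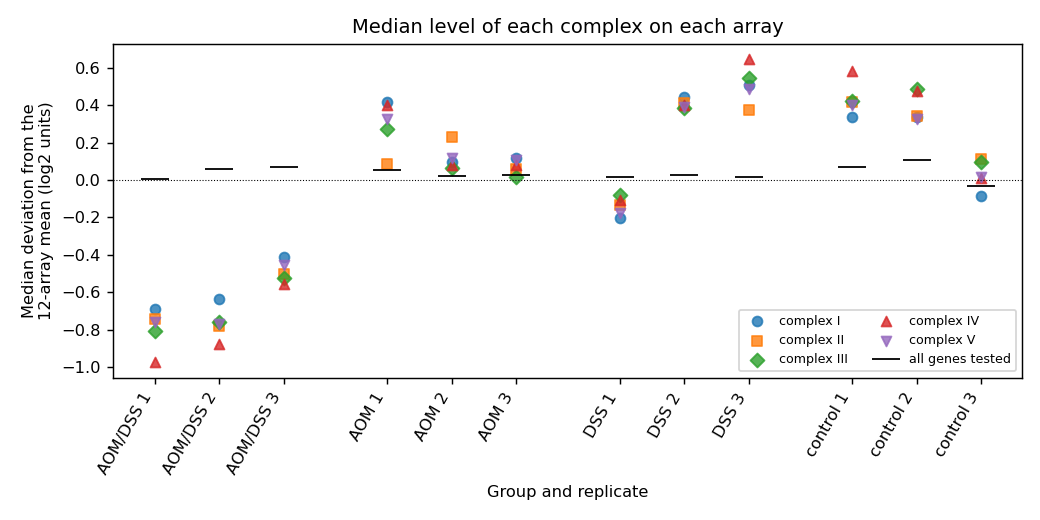
Median deviation of each complex from its 12-array mean (vertical axis, log2 units) on each array, with a dash for the median of all genes tested. The medians of all 5 complexes lie below -0.4 on the 3 AOM/DSS arrays.

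Markers of cell types also differed between the groups. The 10 epithelial markers summed to 838 to 979 in AOM/DSS, 1920 to 2410 in AOM, 1830 to 3210 in DSS and 1640 to 2990 in control samples, and 8 of 10 fell in AOM/DSS against control. Markers of absorptive colonocytes summed to 28.9 to 48 in AOM/DSS and 332 to 640 in control, and 5 of 6 fell. Goblet cell markers summed to 32.8 to 301 in AOM/DSS and 2020 to 3400 in control, and 6 of 6 fell. Neutrophil markers summed to 63.5 to 205 in AOM/DSS and 0.402 to 0.888 in control, and 6 of 6 rose. In the same comparison 4 of 5 macrophage, 4 of 6 fibroblast and 1 of 6 endothelial markers rose, 3 of 6 B and plasma cell and 1 of 2 adipocyte markers fell, and 0 of 5 T cell markers were called (limma). Their part in the values of the respiratory chain genes was not tested.

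Other genes of mitochondrial energy metabolism were followed through lists. Of 43 assembly factors, which build the complexes, 9 fell and 2 rose in AOM/DSS against control, with a median of -0.22, where 17.5% of all genes tested fell and 17.3% rose. Sco1, a copper chaperone of complex IV, fell by 1.41, and Cox10, which makes its heme precursor, fell by 1.39. Sdhaf1 rose by 0.90 and Ndufaf6 by 0.90. Of 11 electron carrier genes, 5 fell and 1 rose, with a median of -0.60; Coq8a, needed for ubiquinone synthesis, fell by 2.70 and Coq10b by 1.66, while Coq6 rose by 0.68. Ndufab1 and Cyc1, subunits whose symbols fall outside the rule, were not called against control, with a median of -0.67, and 2 of 2 fell against AOM and against DSS.

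Of 22 genes of pyruvate entry and the citrate cycle, 8 fell and 2 rose in AOM/DSS against control, with a median of -0.46. Pcx, pyruvate carboxylase, fell by 2.99, and Cs, citrate synthase, by 1.57. Pdk4, a kinase that inhibits pyruvate dehydrogenase, rose by 1.56, and Dlat, a subunit of that enzyme, by 0.60. Of 17 regulators of mitochondrial biogenesis, 4 fell and 3 rose, with a median of -0.21, shares of the list near the 17.5% and 17.3% of all genes. Ppara, a nuclear receptor for fatty acid oxidation, fell by 2.74, and Ppargc1b, a coactivator of mitochondrial genes, by 2.52. Ppargc1a fell by 1.55 and Esrra, the receptor it acts with, by 1.36. Myc rose by 1.57 and Pprc1 by 1.28. In AOM against control, 4 of the 17 regulators fell and 3 rose, where 17.6% and 14.8% of all genes did. The median over this list was 0.08. Ppargc1a fell by 2.52 and Ppargc1b by 1.63, while Myc rose by 1.61.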

How the data were processed

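Spot intensity was deposited as written by Agilent Feature Extraction (10.7.3.1 in the file headers, 10.7 in the submitters' processing notes). Per the file headers, the processed signal used here is background-corrected and not normalized between arrays. The deposited series matrix holds log2 values with sorted columns equal within 0.000945, and served as an alternative. Symbols came from the probe's RefSeq accession. Log2 signal minus each array's 75th percentile was fitted as group means over all 12 arrays with lmFit and eBayes (limma 3.58.1, R 4.3.3). Probes had to exceed background clearly on every array of some group, and the brightest such probe stood for its gene. P-values were Benjamini-Hochberg adjusted over all 18947 genes. On simulated data for AOM/DSS against control over 18947 genes, changes of 1 log2 unit were recovered in 6% and of 3 log2 units in 88% of 50 genes each. That simulation called 79 genes, against 6579 in the data. The Benjamini-Hochberg cutoff was therefore stricter in the simulation, and its shares do not measure how well such changes are found in the data.

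The members and lists were chosen with earlier results of these data known. Values on each array were given for up to 2 called members per complex with the largest fall and rise, up to 4 called in each direction in AOM and DSS against control, isoform pairs and the Sdh subunits; from lists, the 2 called members with the largest change in each direction. Genes named beyond that rule were chosen after their values were seen. It is not known whether replicate numbers pair the arrays. Same-numbered arrays of different groups correlated at -0.27 to 0.245 (mean 0.0468) in their deviations from group means. Arrays with other numbers correlated at -0.256 to 0.38 (mean -0.0231). Of these correlations, 9 of 18 and 9 of 36 were over 0.1. Alternatives were another scaling, background correction, filter, probe rule, slide block, replicate block and leaving out each array; cyclic loess, a fit on named genes only, a fit on the 2 groups compared and leaving out the 2 arrays highest in pancreas markers were added after seeing the data. The number of arrays limits the precision.

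One gene is not reported by name here.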

Additional observations from a re-analysis of the deposited data

How the results depend on the processing

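The members' median in AOM/DSS against control stayed below 0 under every setting run. It ran from -1.10 with median scaling (all genes -0.12, brightest 10% -0.57) to -0.34 with normexp (all genes -0.32, brightest 10% 0.19). The count of called members moved from 64 (2 higher, 62 lower) to 27 with quantile normalization (2 higher, 25 lower), 27 with the authors' series matrix, 28 with cyclic loess (2 higher, 26 lower), 3 with normexp (1 higher, 2 lower) and 4 with the slide as a block (1 higher, 3 lower). Against AOM it moved from 58 to 18 with quantile normalization (2 higher, 16 lower), 17 with the series matrix, 13 with cyclic loess (3 higher, 10 lower), 3 with normexp and 26 with the slide block. Against DSS it moved from 60 to 23, 23, 16, 3 and 0 under the same settings. AOM against control moved from 10 to 5 with median scaling, 18 with cyclic loess, 0 with normexp and 0 with the slide block. Of all genes, 13.6% were lower and 15.8% higher with median scaling, and 17.5% and 17.2% with cyclic loess. DSS against control moved from 0 to 1 without the 2 arrays highest in pancreas markers, where 13.3% of all genes were lower and 9.31% higher. Members with any group difference moved from 67 to 28 with quantile normalization, 29 with the series matrix, 26 with cyclic loess, 4 with normexp and 7 with the slide block. The shares of all genes for that F test under these settings were not compared. The cause was not tested. With cyclic loess the sign reversed for Atp5g3 (0.017), Cox8a (0.018) and Sdhd (0.103) in AOM/DSS against AOM and for Ndufa5 (0.038) in AOM/DSS against DSS. The replicate block gave 57 called members in AOM/DSS against control, where 16.2% of all genes were lower and 16.3% higher. Whether the replicate numbers pair the arrays is not known.

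Leaving out 1 array gave 39 (without control replicate 1) to 70 called members in AOM/DSS against control. It gave 1 (without AOM replicate 2) to 12 in AOM against control and 0 to 3 (without DSS replicate 1) in DSS against control. Against AOM, AOM/DSS had 19 (without AOM/DSS replicate 1) to 64, and against DSS 26 (without DSS replicate 3) to 70. DSS against AOM had 0, and any group difference 23 (without AOM/DSS replicate 1) to 75. The shares of all genes in these fits were not compared, so whether the members moved more than other genes is not shown.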
